A study of Homo sapiens with 36 samples.

Results

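The family of lysine methyltransferases that act on histone H3 lysine 4 is represented here by 7 genes, KMT2A, KMT2B, KMT2C, KMT2D, KMT2E, SETD1A and SETD1B. They were taken by their NCBI gene identifiers from the gene tables of 3 RNA-seq experiments, and all 7 had a row in each table, among 16431 genes for NT2/D1-A4, 17035 genes for 2102EP-C1 given GSK-J4, and 16459 genes for 2102EP-C1 with knockdown. NT2/D1-A4 and 2102EP-C1 are cisplatin-resistant derivatives of the human testicular embryonal carcinoma lines NT2/D1 and 2102EP, so each cell model is a single resistant line. GSK-J4 inhibits KDM6A and KDM6B, the demethylases that remove the polycomb mark H3K27me3, and the comparisons ask how these genes responded to the inhibitor or to loss of its targets, with and without cisplatin. Each experiment had 4 arms of 3 libraries.

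In the first and second experiments the arms were control, 0.5 µM cisplatin for 6 h, 1 µM GSK-J4 for 3 days, and GSK-J4 followed by cisplatin. In the third experiment 2102EP-C1 cells carried either the empty lentiviral vector pLKO.1 or both an shRNA to KDM6A and an shRNA to KDM6B (sh6A+6B), the latter under puromycin and neomycin selection, and each was left without cisplatin or given 0.5 µM cisplatin for 6 h. RNA was harvested 24 h after cisplatin. Each knockdown used 1 shRNA per gene in a selected population, and the control vector carried no shRNA. The libraries held 26.8 to 49.5 Mreads (megareads, counted in genes), 30.3 to 53.6 Mreads and 79.4 to 100.9 Mreads in the 3 experiments. Of 9 embryonal carcinoma markers, 8 were matched by symbol in every experiment, at mean levels from 7.72 to 11.72 log2 CPM (reads scaled to the library total, on a log2 scale) in the untreated arms. No row was matched under the symbol TDGF1, and other names of that gene were not tried. Of the markers of other cell types, 3 or 4 of 5 neural, 1 or 2 of 5 endoderm, 3 of 4 mesoderm, 1 or 2 of 4 trophoblast and 2 of 4 fibroblast genes were measured, and SOX17, FOXA2, CDX2, DCN and LUM had no row. The summed level of the 8 embryonal carcinoma markers lay between 12.51 and 12.94 across the NT2/D1-A4 arms, 12.99 and 13.33 across the 2102EP-C1 arms with GSK-J4, and 13.01 and 13.24 across the knockdown arms, lowest in each case in the arm with both treatments. The labels number the libraries without naming separate cultures, so p-values measure the spread between these libraries.

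Methylation of H3 lysine 4 marks active promoters and enhancers and opposes polycomb repression. SETD1A and SETD1B carry out much of the H3K4 trimethylation at promoters, KMT2A and KMT2B work with menin at promoters of developmental genes such as the HOX clusters, and KMT2C and KMT2D monomethylate enhancers in a complex that contains KDM6A itself. All 6 share a core of WDR5, RBBP5, ASH2L and DPY30, whereas KMT2E keeps the SET domain but has little or no methyltransferase activity of its own.

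On GRCh38.p14 the genes lie at chr11:118436492-118526832 (KMT2A, gene 4297), chr19:35718003-35738878 (KMT2B, gene 9757), chr7:152134925-152436003 (KMT2C, gene 58508), chr12:49018978-49060794 (KMT2D, gene 8085), chr7:105014205-105115019 (KMT2E, gene 55904), chr16:30957754-30984664 (SETD1A, gene 9739) and chr12:121790155-121832656 (SETD1B, gene 23067). Their longest GENCODE transcripts are long, at 16725, 16860 and 20686 nt for KMT2A, KMT2C and KMT2D, and 6451 to 8557 nt for the other 4. The 250 bases before the start of transcription are given, 5′ to 3′ on the sense strand, for the 3 members with the largest interaction in the knockdown experiment (KMT2A, KMT2C and KMT2D) and for KMT2E, the only member that knockdown alone raised. Capitals mark the GC box GGGCGG on either strand, a letter match for SP and KLF factors, and the intervals are chr11:118436242-118436491 (+), chr7:152436004-152436253 (-), chr12:49060795-49061044 (-) and chr7:105013955-105014204 (+), from RefSeq.
KMT2A: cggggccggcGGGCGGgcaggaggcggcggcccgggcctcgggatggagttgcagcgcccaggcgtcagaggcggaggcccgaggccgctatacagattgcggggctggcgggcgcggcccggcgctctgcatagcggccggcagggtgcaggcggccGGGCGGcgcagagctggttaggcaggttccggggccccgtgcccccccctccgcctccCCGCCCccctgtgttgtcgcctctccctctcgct
KMT2C: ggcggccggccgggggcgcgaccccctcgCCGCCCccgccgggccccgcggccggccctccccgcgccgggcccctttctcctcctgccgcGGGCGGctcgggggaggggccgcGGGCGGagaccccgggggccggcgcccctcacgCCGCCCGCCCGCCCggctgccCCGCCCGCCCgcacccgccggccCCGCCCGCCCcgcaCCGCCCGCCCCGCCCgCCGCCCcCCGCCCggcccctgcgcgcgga
KMT2D: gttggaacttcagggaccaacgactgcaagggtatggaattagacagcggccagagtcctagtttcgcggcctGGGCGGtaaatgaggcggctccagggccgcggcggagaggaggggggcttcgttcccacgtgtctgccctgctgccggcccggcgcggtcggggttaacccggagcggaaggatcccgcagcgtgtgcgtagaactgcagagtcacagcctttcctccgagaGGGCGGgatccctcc
KMT2E: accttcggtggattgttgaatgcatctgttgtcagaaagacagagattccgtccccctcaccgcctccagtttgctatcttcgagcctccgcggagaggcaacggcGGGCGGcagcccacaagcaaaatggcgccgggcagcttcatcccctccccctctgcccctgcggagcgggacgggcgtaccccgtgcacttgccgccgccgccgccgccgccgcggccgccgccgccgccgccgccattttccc
The GC box was found 3, 15, 2 and 1 times in these 4 windows, overlapping matches included. A promoter was matched for 6 of the 7 members (SETD1B was not matched), and all 6 held the GC box, which 59.3% of 19242 promoters of the same length hold. None of the 6 held CCAAT (32.6% of all promoters), CCGGAAG (12.4%), the NRF1 palindrome (1.48%) or TGACGTCA (2.27%), and 1 of 6, KMT2D, held CACGTG (7.81%). The windows had 23 to 48 CpG dinucleotides against a median of 19 over all promoters.

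Levels were compared between members only per length, as log2 CPM per kb of the longest transcript in the untreated arm. SETD1A was highest in every experiment, at 3.42 in NT2/D1-A4, 3.23 in 2102EP-C1 and 3.01 in pLKO.1 cells. In 2102EP-C1 control cells SETD1B (2.88) and KMT2D (2.80) came next with overlapping libraries, then KMT2B (2.57), KMT2A (2.14) and KMT2E (2.12), the last pair overlapping, and KMT2C was lowest (1.81). pLKO.1 cells, the same line with the vector, had KMT2D at 2.74, SETD1B at 2.60, KMT2B, KMT2A and KMT2E at 2.33, 2.29 and 2.25 with overlapping neighbours, and KMT2C again lowest at 1.91. NT2/D1-A4 cells had KMT2D and KMT2A at 2.65 and 2.64 with overlapping libraries, KMT2E at 2.43, SETD1B and KMT2C at 2.37 and 2.28 with overlapping libraries, and KMT2B lowest at 2.08. The order rests on which transcript is used: per median coding transcript, KMT2D ranked 1, KMT2B 2 and KMT2A 3 in every experiment.

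**Figure D1:**
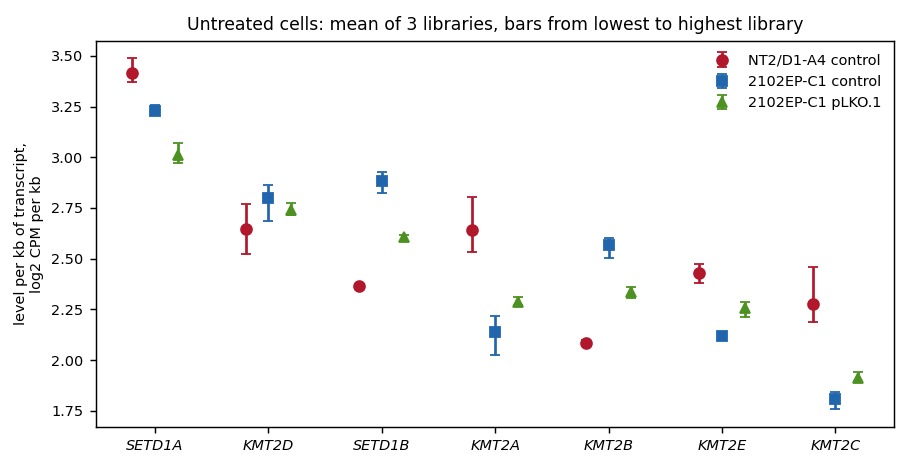
Level per kb of transcript (log2 CPM per kb, vertical axis) of the 7 genes in the untreated arm of each experiment, as the mean of 3 libraries with bars from the lowest to the highest library. SETD1A sits at the top in all 3 experiments, from 3.01 to 3.42, and KMT2C at the bottom in both 2102EP-C1 experiments.

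The targeted genes were checked first in the knockdown experiment. KDM6A read 7.16, 7.17 and 7.15 log2 CPM in pLKO.1 cells and 6.14, 6.09 and 6.20 in sh6A+6B cells, and KDM6B read 4.61, 4.66 and 4.63 against 3.51, 3.61 and 3.75. Each fell by 1.01 on the log2 scale (limma-trend, adjusted p = 2.13e-18 for KDM6A and 1.78e-14 for KDM6B, Benjamini-Hochberg over all genes of the table). The knockdown labels were borne out in every library.

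In KDM6A/KDM6B-knockdown cells cisplatin lowered the levels of all 7 genes. Relative to sh6A+6B cells without cisplatin, the difference ran from -0.22 (SETD1A) to -0.55 (KMT2D) on the log2 scale, with a median of -0.31. Over all genes of the experiment 22.7% were called lower in this comparison (limma-trend, adjusted p below 0.05). With a fold change above 1.3 as well, the limit of the study's volcano plots, KMT2D alone remained, where 1.04% of genes passed downward. For the gene groups it drew from this comparison the study used a fold above 1.2 and an adjusted p below 0.001. All members but SETD1A (1.17-fold) passed that limit, for which no share of all genes is given here. In bulk RNA, fewer cells with a transcript and less transcript per cell cannot be told apart. In vector cells the same cisplatin dose raised 3 of the 7 and lowered none, where 17.9% of all genes rose. The interaction was called below 0 for all 7, where 18.0% of all genes were called below 0, and for 5 of 7 once a trend with transcript length and GC content was removed. KMT2A, KMT2B, KMT2C, KMT2D, KMT2E and SETD1B were among the genes the study itself chose from these libraries for that fall, so its direction is not independent evidence.

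KMT2D, the enhancer monomethyltransferase, changed most. It read 7.14, 7.08 and 7.11 log2 CPM in pLKO.1 cells, 7.27, 7.31 and 7.35 after cisplatin, 6.91, 6.97 and 6.97 in sh6A+6B cells and 6.31, 6.41 and 6.47 in sh6A+6B cells after cisplatin. The 4 arms did not overlap, with cisplatin highest in vector cells and lowest in knockdown cells. Cisplatin raised it by 0.20 ± 0.03 (log2 fold change ± SE, n = 3 libraries per arm) in vector cells (limma-trend, adjusted p = 1.62e-05) and it fell by 0.55 ± 0.03 in knockdown cells (adjusted p = 9.57e-13). The interaction, which is the difference between these 2 cisplatin effects, was -0.75 ± 0.04 (adjusted p = 4.30e-12). Among cisplatin-treated cells, knockdown left KMT2D 1.88-fold lower than vector.

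KMT2A and KMT2C followed the same course. KMT2A, the MLL1 enzyme of HOX regulation, read 6.38, 6.34 and 6.34 in pLKO.1 cells, 6.54, 6.53 and 6.57 after cisplatin, 6.21, 6.22 and 6.24 with knockdown and 5.82, 5.84 and 5.92 with both. KMT2C, the paralog of KMT2D, read 5.97, 5.97 and 6.01, then 6.30, 6.31 and 6.30 after cisplatin, 5.92, 5.92 and 5.95 with knockdown and 5.55, 5.62 and 5.74 with both. In each gene every cisplatin library stood above every untreated library in vector cells and below every untreated library in knockdown cells. Cisplatin raised KMT2A by 0.19 ± 0.02 and KMT2C by 0.32 ± 0.03 in vector cells (limma-trend, adjusted p = 1.33e-06 and 3.06e-08), and they fell by 0.36 ± 0.02 and 0.29 ± 0.03 in knockdown cells (adjusted p = 3.83e-11 and 5.30e-08). Their interactions were -0.56 ± 0.03 and -0.61 ± 0.04 (adjusted p = 1.81e-11 and 1.68e-10).

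**Figure D2:**
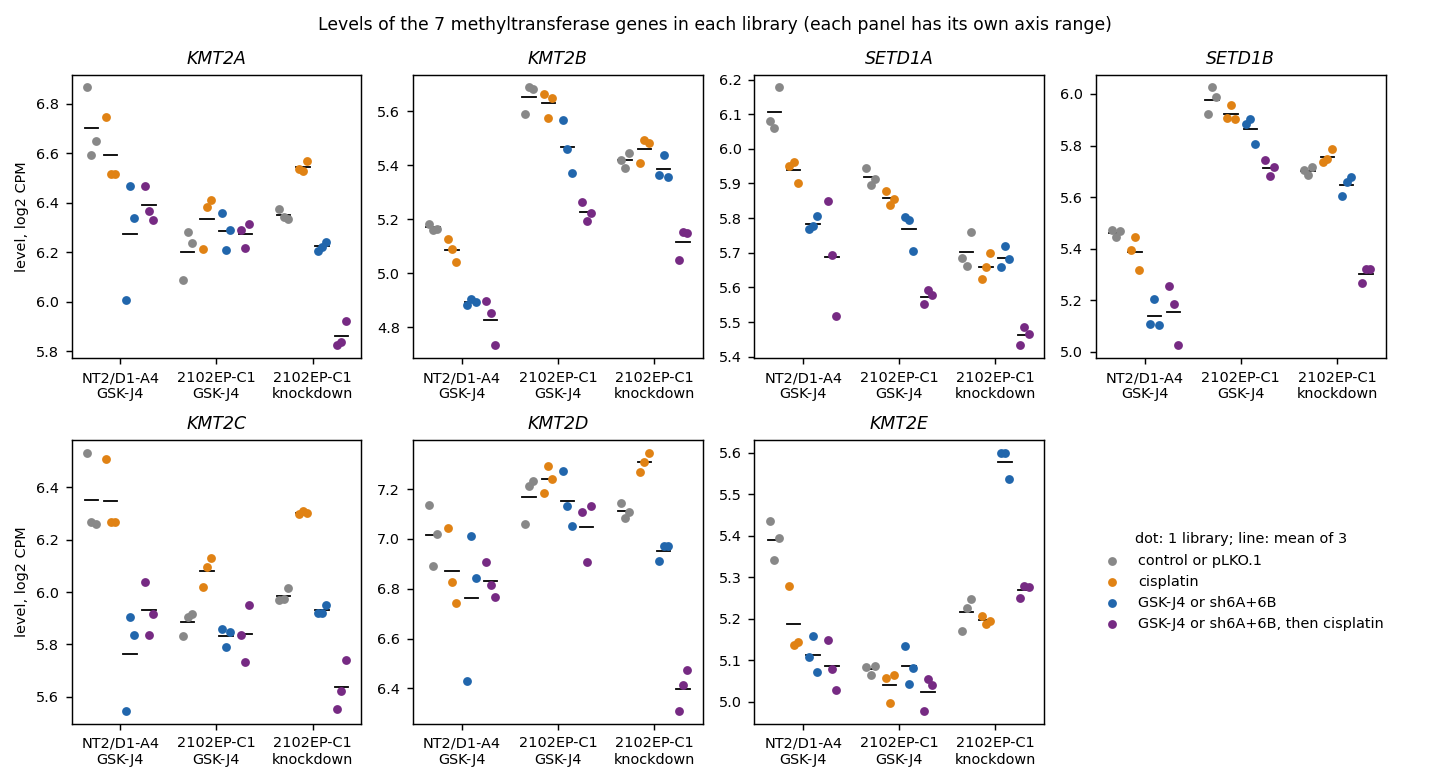
Level (log2 CPM, vertical axis) of each of the 7 genes in every library, with 1 dot per library, a line at the mean of 3 and colours for the 4 arms of each experiment. In the knockdown experiment the arm with both treatments is the lowest of the 4 for every gene except KMT2E, whose highest arm is sh6A+6B without cisplatin.

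SETD1A, SETD1B and KMT2B had smaller interactions than KMT2A, KMT2C and KMT2D, differences that were not tested. SETD1B read 5.71, 5.69 and 5.71 in pLKO.1 cells, 5.74, 5.75 and 5.79 after cisplatin, 5.60, 5.66 and 5.68 with knockdown and 5.27, 5.32 and 5.32 with both, so that the last arm stood apart from the other 3. Cisplatin lowered it by 0.34 ± 0.03 in knockdown cells (limma-trend, adjusted p = 1.89e-10), and the interaction was -0.40 ± 0.04 (adjusted p = 6.66e-09). SETD1A read 5.69, 5.66 and 5.76, then 5.62, 5.66 and 5.70, then 5.66, 5.72 and 5.68, and 5.43, 5.49 and 5.47 in the same order of arms, with an interaction of -0.18 ± 0.04 (adjusted p = 0.000717). KMT2B, the paralog of KMT2A, read 5.42, 5.39 and 5.45, then 5.41, 5.49 and 5.48, then 5.36, 5.44 and 5.36, and 5.05, 5.15 and 5.15, with an interaction of -0.31 ± 0.04 (adjusted p = 5.54e-06). The 3 genes had no called change with cisplatin in vector cells, where their differences were 0.06 (SETD1B), -0.04 (SETD1A) and 0.04 (KMT2B).

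KMT2E took another course. It read 5.17, 5.23 and 5.25 in pLKO.1 cells and 5.21, 5.19 and 5.19 after cisplatin, rose to 5.60, 5.60 and 5.54 with knockdown, and read 5.25, 5.28 and 5.28 with both. Knockdown alone raised it by 0.36 ± 0.03 (limma-trend, adjusted p = 6.16e-11), the only rise among the 7, in a comparison where 25.6% of all genes rose and 27.2% fell. Cisplatin then lowered it by 0.31 ± 0.03 in knockdown cells (adjusted p = 1.92e-09), which left it 0.05 ± 0.03 from untreated vector cells (adjusted p = 0.0836). Its interaction of -0.29 ± 0.04 therefore began from a raised level, unlike that of the other 6. KMT2E-AS1, LINC01004 and SRPK2 overlap KMT2E on the opposite strand and have rows in all 3 tables, and IGFLR1 overlaps KMT2B in the same way; the kit marks strand but the strand setting of the count was not given in the sources used here. Near-identical partial copies of KMT2C elsewhere in the genome could share its reads, so its level is uncertain to that extent.

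With knockdown alone the summed level of 3 measured of 4 mesoderm markers went from 2.65 to 3.59 and that of the embryonal carcinoma markers from 13.24 to 13.14. The neural markers went from 5.08 to 4.95 and the trophoblast markers from 2.28 to 2.15. The endoderm marker went from 0.17 to 0.23 and the fibroblast markers from 6.34 to 6.35. The part of these markers in the differences was not tested. Knockdown alone lowered KMT2A by 0.13 ± 0.02 and KMT2D by 0.16 ± 0.03 (limma-trend, adjusted p = 0.000131 and 9.06e-05), while KMT2B, KMT2C, SETD1A and SETD1B were not called, at -0.03, -0.06, -0.02 and -0.06. With both treatments against untreated vector cells 6 of 7 fell, from -0.24 (SETD1A) to -0.71 (KMT2D), where 31.7% of all genes fell, and 3 of them passed the fold change of 1.3, against 7.50%. Within cisplatin-treated cells knockdown lowered the same 6, from -0.20 (SETD1A) to -0.91 (KMT2D), and raised KMT2E by 0.07 ± 0.03 (limma-trend, adjusted p = 0.0209; 0.07 and not called without the second pLKO.1 library with cisplatin or the second or the third sh6A+6B library with cisplatin), where 30.7% of all genes fell and 30.9% rose, and 4 members were past the fold change of 1.3 downward, against 8.77%. Cisplatin in vector cells raised KMT2A, KMT2C and KMT2D, where 17.9% of all genes rose. For the interaction, 18.0% of all genes were called below 0, and 4 of the 7 members (KMT2A, KMT2C, KMT2D and SETD1B) also passed the fold change of 1.3, against 2.67% of all genes.

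Transcript length moved with these results. Of the 709 genes with a transcript above 10 kb, 59.1% rose with cisplatin in vector cells, 51.5% fell with cisplatin in knockdown cells and 62.9% had an interaction called below 0, with median log2 values of 0.12, -0.11 and -0.25. The medians were graded with length, and the interaction median was 0.14 for transcripts under 2 kb and -0.14 for those of 6 to 10 kb, the class of KMT2B, KMT2E, SETD1A and SETD1B. KMT2A, KMT2C and KMT2D lay further from 0 than the median of their class in all 3 comparisons, and SETD1A lay near it for the interaction. After a smooth trend of each library with transcript length and GC content was removed, all 7 genes remained called lower with cisplatin in knockdown cells, from -0.08 (SETD1A) to -0.31 (KMT2D), and the median went from -0.31 to -0.17. The interaction then stayed called in 5 of 7, at -0.33 for KMT2D, -0.31 for KMT2C, -0.24 for KMT2A, -0.18 for KMT2E and -0.18 for SETD1B (limma-trend, adjusted p from 2.11e-11 to 0.000118), whereas KMT2B (-0.09, adjusted p = 0.0547) and SETD1A (-0.02, adjusted p = 0.725) were no longer called. Of the 3 rises with cisplatin in vector cells KMT2C alone stayed called (0.15, adjusted p = 1.32e-05), with KMT2A at 0.03 and KMT2D at 0.02, and KMT2E was called lower there (-0.09, adjusted p = 0.00387). With the trend removed KMT2B and SETD1A also lost their falls with both treatments against vector cells, at -0.01 and 0.02, and among cisplatin-treated cells KMT2B was at -0.01 and SETD1A turned to 0.07 (adjusted p = 0.00662). With knockdown alone, KMT2B and SETD1A turned to 0.08 and 0.09 (limma-trend, adjusted p = 0.00546 and 0.000929). KMT2C, not called with knockdown alone before, was then called lower (-0.13, adjusted p = 6.21e-05).

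**Figure D3:**
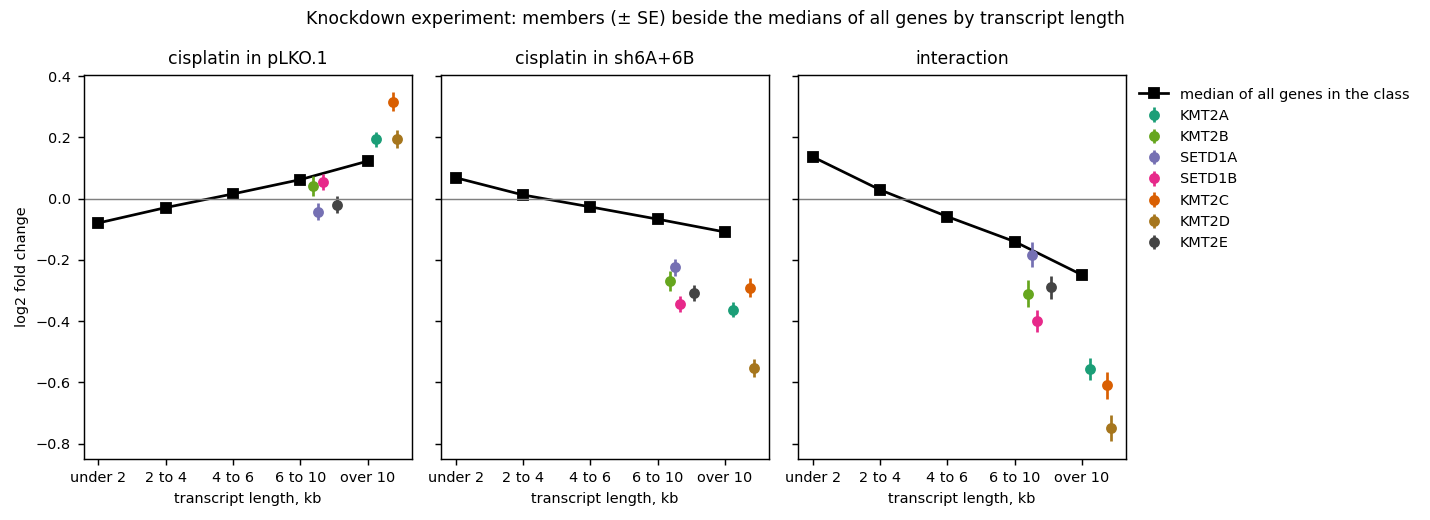
Log2 fold change (vertical axis) in the knockdown experiment for the 7 genes (coloured dots, ± SE) beside the median of all genes in 5 classes of transcript length in kb (black squares), for cisplatin in pLKO.1 cells, cisplatin in sh6A+6B cells and the interaction. The class medians climb with length in the left panel, to 0.12, and go down with length in the other panels, to -0.11 and -0.25, and the members in sh6A+6B cells all lie below the medians of their classes.

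GSK-J4, the inhibitor of KDM6A and KDM6B, lowered all 7 genes in NT2/D1-A4 cells, KMT2D only just past the limit. The fall ran from -0.25 (KMT2D) to -0.59 (KMT2C) on the log2 scale, with a median of -0.32, in a comparison where 23.8% of all genes fell (limma-trend, adjusted p below 0.05). KMT2A and KMT2C also passed the fold change of 1.3, against 6.48% of all genes. Over the control and GSK-J4 arms the summed level of the 8 embryonal carcinoma markers went from 12.94 to 12.64 and that of 4 measured of 5 neural markers, led by NEFL, from 5.79 to 6.47. In calls, 7 of 8 embryonal carcinoma markers fell and 1 rose, and 2 of 2 endoderm, 2 of 3 mesoderm, 1 of 1 trophoblast and 2 of 4 neural markers rose. In either direction 7929 of 16431 genes were called in this comparison. The part of these markers in the fall was not tested. Cisplatin added to GSK-J4 called none of the 7 (0 at an unadjusted p below 0.05 and 0 by voom on recovered reads), with differences from -0.10 (SETD1A) to 0.17 (KMT2C), where 0.712% of all genes rose and 0.548% fell. No interaction was called in this line either (0 of 7 by limma-trend and 0 by voom, with KMT2E alone below an unadjusted p of 0.05), and all 7 values were above 0, from 0.02 to 0.23, where 0.0426% of all genes were called below 0 and 0.00% above.

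KMT2C read 6.53, 6.27 and 6.26 log2 CPM in NT2/D1-A4 control cells, 6.51, 6.27 and 6.27 after cisplatin, 5.55, 5.91 and 5.84 with GSK-J4 and 6.04, 5.84 and 5.91 with both. Every library given GSK-J4 was below every library without it. The difference with GSK-J4 alone was -0.59 ± 0.09 (limma-trend, adjusted p = 1.72e-05), and that of both treatments against control was -0.42 ± 0.09 (adjusted p = 0.000454). KMT2A read 6.87, 6.59 and 6.65 in control cells, 6.75, 6.52 and 6.52 after cisplatin, 6.01, 6.47 and 6.34 with GSK-J4 and 6.47, 6.37 and 6.33 with both, so that GSK-J4 libraries again lay below the others. GSK-J4 alone lowered it by 0.43 ± 0.09 (adjusted p = 0.000629).

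KMT2B, SETD1A and SETD1B also fell. KMT2B read 5.18, 5.16 and 5.16 in control cells, 5.13, 5.09 and 5.04 after cisplatin, 4.88, 4.90 and 4.90 with GSK-J4 and 4.90, 4.85 and 4.73 with both, a fall with GSK-J4 alone of 0.28 ± 0.05 (limma-trend, adjusted p = 9.65e-05). SETD1B read 5.47, 5.45 and 5.47, then 5.40, 5.44 and 5.32, then 5.11, 5.21 and 5.11, and 5.25, 5.19 and 5.02 in the same order of arms, and fell by 0.32 ± 0.05 (adjusted p = 7.41e-05). SETD1A read 6.08, 6.06 and 6.18, then 5.95, 5.96 and 5.90, then 5.77, 5.78 and 5.80, and 5.85, 5.69 and 5.52, and fell by 0.32 ± 0.06 (adjusted p = 0.000201). With both treatments SETD1A was 1.34-fold below control, and its difference of -0.42 ± 0.06 was close to that of KMT2C.

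The call of KMT2D depended on single libraries in this line. It read 7.14, 6.89 and 7.02 in control cells, 7.04, 6.83 and 6.74 after cisplatin, 6.43, 7.01 and 6.84 with GSK-J4 and 6.91, 6.81 and 6.77 with both, and the control and GSK-J4 libraries overlapped. Its difference with GSK-J4 alone was -0.25 ± 0.10 (limma-trend, adjusted p = 0.0478), and -0.09 (adjusted p = 0.376) without the first GSK-J4 library. The call was also lost without the first or the third control library, the second cisplatin library, the third GSK-J4 library or the second library with both treatments (-0.19 to -0.30), and with a filter on low values, voom, library size scaling or the library number as a block (adjusted p = 0.0549, 0.0571, 0.104 and 0.0584), which leaves 6 of 7. The first GSK-J4 library was also the lowest of the 12 for KMT2A and KMT2C, and its 698 transcripts above 10 kb had a median deviation of -0.09 from their means over the experiment, the lowest of the 12 libraries. The falls of the other 6 members with GSK-J4 alone stayed called without any single library.

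KMT2E was the only member called with cisplatin alone in NT2/D1-A4 cells. It read 5.43, 5.34 and 5.40 in control cells, 5.28, 5.14 and 5.14 after cisplatin, 5.11, 5.16 and 5.07 with GSK-J4 and 5.15, 5.08 and 5.03 with both. It fell by 0.20 ± 0.05 with cisplatin (limma-trend, adjusted p = 0.0150), where 3.58% of all genes fell, and by 0.28 ± 0.05 with GSK-J4 (adjusted p = 0.000140). The call with cisplatin was lost when the first or the third control library or the second or the third cisplatin library was left out, at -0.18 to -0.20 (adjusted p from 0.0512 to 0.0778). The other 6 members ran from -0.01 (KMT2C) to -0.17 (SETD1A) with cisplatin alone. With both treatments 6 of 7 fell, KMT2D (-0.19) being the exception, where 26.5% of all genes fell, and KMT2C and SETD1A passed the fold change of 1.3, against 9.56%; the call of KMT2A was lost without the first control library (-0.23, adjusted p = 0.0539). Within cisplatin-treated cells GSK-J4 lowered KMT2B, KMT2C, SETD1A and SETD1B, by 0.23 (SETD1B) to 0.42 (KMT2C), where 24.2% of all genes fell. KMT2C alone passed the fold change of 1.3, against 7.84%. With the length and GC trend removed KMT2A (-0.21) and KMT2E (-0.10) were called lower there too (limma-trend, adjusted p = 0.00265 and 0.0410).

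**Figure D4:**
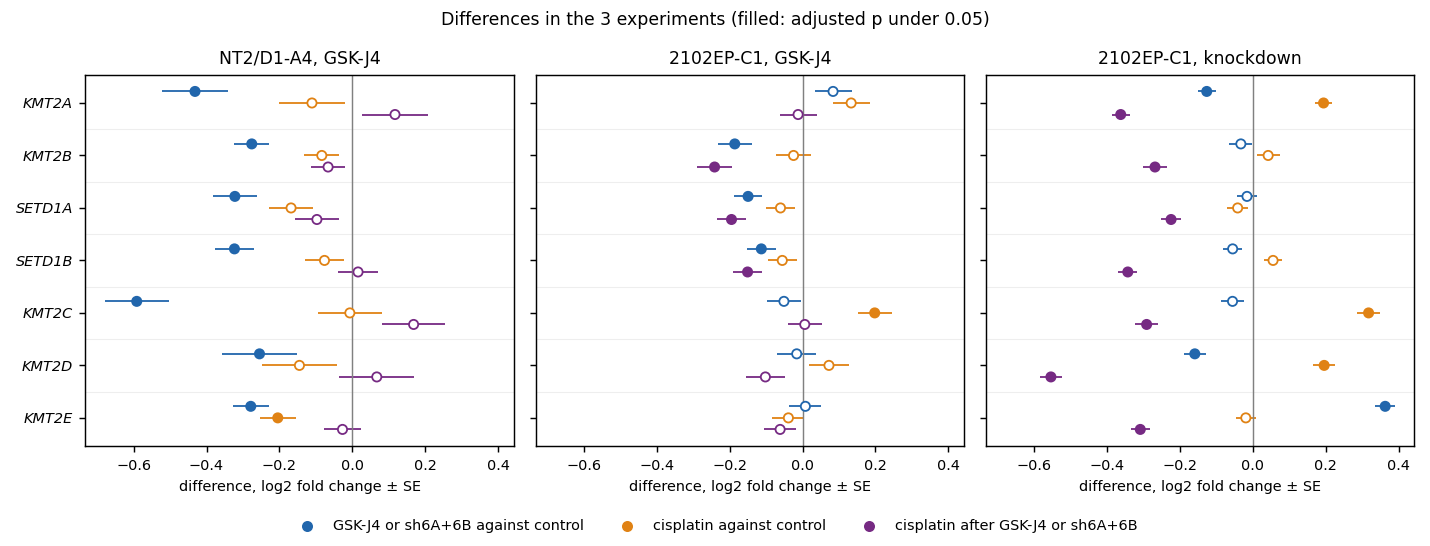
Difference (log2 fold change ± SE, horizontal axis) of each of the 7 genes in the 3 experiments, for GSK-J4 or knockdown alone, cisplatin alone and cisplatin after GSK-J4 or knockdown, with filled dots at an adjusted p below 0.05. All 7 dots for GSK-J4 alone are filled and below 0 in NT2/D1-A4 cells, and all 7 for cisplatin after knockdown are filled and below 0 in the right panel, where KMT2E with knockdown alone stands at 0.36.

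In 2102EP-C1 cells GSK-J4 lowered 3 of the 7, KMT2B, SETD1A and SETD1B, where 16.0% of all genes fell. In the same comparison 6 of 8 embryonal carcinoma markers fell (summed level 13.33 to 13.12), and 2 of 2 endoderm, 2 of 2 trophoblast, 1 of 3 mesoderm and 1 of 3 neural markers rose, and their part in the differences was not tested. The differences were small, at -0.19 ± 0.05, -0.15 ± 0.04 and -0.11 ± 0.04 (limma-trend, adjusted p = 0.0030, 0.00336 and 0.0282), and that of SETD1B lost its call without the second or the third control library or the third GSK-J4 library (-0.08 to -0.11), and with a fit of only the arms compared or library size scaling (adjusted p = 0.0568 and 0.0580). The other 4 ran from -0.05 (KMT2C) to 0.08 (KMT2A). The difference from NT2/D1-A4 cells was not tested, since the tables were normalized separately.

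Cisplatin after GSK-J4 lowered the same 3 genes further, where 8.10% of all genes fell. KMT2B read 5.59, 5.69 and 5.68 in control cells, 5.66, 5.57 and 5.65 after cisplatin, 5.57, 5.46 and 5.37 with GSK-J4 and 5.26, 5.19 and 5.22 with both. SETD1A read 5.95, 5.90 and 5.91, then 5.88, 5.84 and 5.85, then 5.80, 5.80 and 5.71, and 5.55, 5.59 and 5.58 in the same order. SETD1B read 5.92, 6.03 and 5.99, then 5.91, 5.96 and 5.90, then 5.88, 5.90 and 5.81, and 5.74, 5.68 and 5.72. In all 3 genes the arm with both treatments lay below every other library. Relative to GSK-J4 alone they fell by 0.24 ± 0.05, 0.20 ± 0.04 and 0.15 ± 0.04 (limma-trend, adjusted p = 0.00105, 0.00113 and 0.0106), the last no longer called without the first or second GSK-J4 library or the second library with both treatments (-0.13 to -0.14), or with a fit of only the arms compared (adjusted p = 0.0553). None of these 3 calls remained once the length and GC trend was removed (-0.09, -0.06 and -0.02). With both treatments against control, where 25.6% of all genes fell, KMT2B was 1.35-fold lower and alone passed the fold change of 1.3, against 9.77% of all genes (-0.43 ± 0.05, adjusted p = 2.42e-08), SETD1A was at -0.34 ± 0.04 (adjusted p = 2.95e-08) and SETD1B at -0.26 ± 0.04 (adjusted p = 3.43e-06), and these 3 stayed called with the trend removed (-0.24, -0.17 and -0.11).

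KMT2C, KMT2D, KMT2A and KMT2E had no called change with GSK-J4 alone in this experiment. KMT2C read 5.83, 5.90 and 5.92 in control cells, 6.02, 6.10 and 6.13 after cisplatin, 5.86, 5.79 and 5.85 with GSK-J4 and 5.83, 5.73 and 5.95 with both. Cisplatin alone raised it by 0.20 ± 0.05 (limma-trend, adjusted p = 0.0114), the only member of 7 called, where 3.06% of all genes rose; the call was lost without the first control library or the second or the third cisplatin library (0.17 to 0.19). Genes with transcripts above 10 kb rose in this comparison in 12.1% of 718 cases, and with the length and GC trend removed KMT2C was at 0.11 (adjusted p = 0.0817). KMT2D read 7.06, 7.21 and 7.23, then 7.18, 7.30 and 7.24, then 7.27, 7.13 and 7.05, and 7.11, 6.91 and 7.13, with arms that overlapped in all comparisons except GSK-J4 within cisplatin-treated cells. KMT2A read from 6.09 to 6.41 over the 12 libraries and KMT2E from 4.98 to 5.13, and neither was called in any comparison. With the length and GC trend removed KMT2E was called lower with both treatments (-0.19, limma-trend, adjusted p = 0.000525) and with GSK-J4 within cisplatin (-0.11, adjusted p = 0.0280). KMT2C was then called lower with GSK-J4 alone (-0.13, limma-trend, adjusted p = 0.00518) and with both treatments (-0.15, adjusted p = 0.00134).

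Within cisplatin-treated 2102EP-C1 cells GSK-J4 lowered 5 of 7 (23.9% of all genes fell), KMT2B by 0.40 (past the fold change of 1.3, against 8.82%), SETD1A by 0.28, KMT2C by 0.24, SETD1B by 0.21 and KMT2D by 0.19, the last not without the second library with both treatments (-0.12, adjusted p = 0.0700). With the length and GC trend removed SETD1B lost its call there (-0.02, adjusted p = 0.581) and KMT2D turned to 0.05. No interaction was called (0 of 7 by limma-trend and 0 by voom, where 1.64% of all genes were called below 0 and 0.734% above), although all 7 values were below 0, from -0.02 (KMT2E) to -0.22 (KMT2B), and 4 had an unadjusted p below 0.05. Without the third GSK-J4 library 3 of them were called, KMT2B at -0.26, KMT2D at -0.22 and SETD1A at -0.17 (adjusted p = 0.00472, 0.0403 and 0.0208), and 2435 genes in place of 405 were called over the table. KMT2C was called without the third library with both treatments (-0.25, adjusted p = 0.0229). The knockdown experiment in the same line, with 79.4 to 100.9 Mreads a library against 30.3 to 53.6 Mreads, had interactions of -0.31 for KMT2B, -0.75 for KMT2D, -0.18 for SETD1A and -0.61 for KMT2C. The difference between inhibitor and knockdown was not tested.

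**Figure D5:**
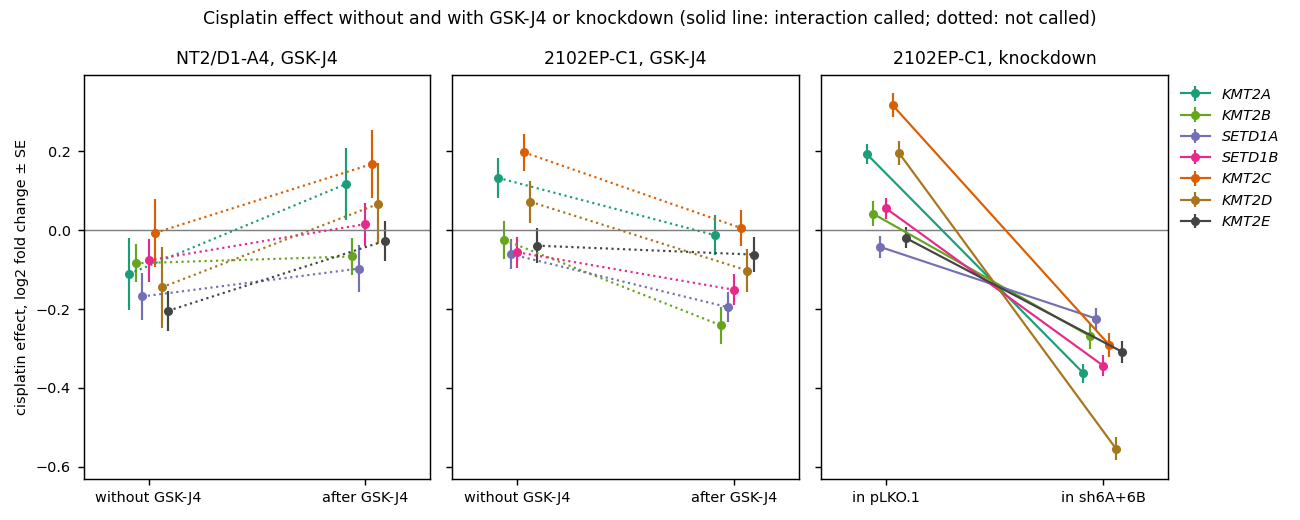
Cisplatin effect (log2 fold change ± SE, vertical axis) on each of the 7 genes without and with GSK-J4 or knockdown, joined by a solid line where the interaction was called and a dotted line where it was not. Lines slope down for all 7 genes in the knockdown experiment, from between -0.04 and 0.32 to between -0.55 and -0.22, go down with no call for 2102EP-C1 under GSK-J4, and go up with no call for NT2/D1-A4.

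The complex partners listed for members other than KMT2E did not all move with the 7 genes. Of the shared core of 4 (WDR5, RBBP5, ASH2L and DPY30), cisplatin in knockdown cells raised 2 and lowered none, with a median of 0.07, and the interaction was called above 0 in 2 and below 0 in none, with a median of 0.14. Knockdown alone lowered 3 of the 4. Of 5 subunits of the SETD1 complexes, cisplatin in knockdown cells raised 1 and lowered 2, and HCFC1, which also binds KMT2A, fell by 0.40 (limma-trend, adjusted p = 4.60e-12) with an interaction of -0.43. BOD1L1, a SETD1A-associated protein of replication forks, had an interaction of -0.47 (adjusted p = 1.09e-10). Of the 3 KMT2A and KMT2B partners (MEN1, PSIP1 and TASP1) 2 fell with cisplatin in knockdown cells, with a median of -0.09, and no interaction was called. Of the 4 KMT2C and KMT2D partners 3 fell and 1 rose, and the interaction was called below 0 in 1. KDM6A, the knockdown target, is 1 of these 4. Medians over all genes were within 0.01 of 0 in these comparisons. Of all genes 22.7% fell with cisplatin in knockdown cells, 27.2% fell with knockdown alone and 18.0% had an interaction called below 0. In either direction 7369 of 16459 genes were called with cisplatin in knockdown cells and 5785 for the interaction.

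Other enzymes of histone lysine methylation were counted in the same way. Of 5 H3K4 demethylases, which take methyl groups off the same lysine, 3 had an interaction called below 0 (18.0% of all genes) with a median of -0.12. Of 20 other histone lysine methyltransferases 13 fell and 2 rose with cisplatin in knockdown cells (22.7% of all genes fell), with a median of -0.11, and 9 interactions were called below 0 and 1 above. ASH1L, an H3K36 methyltransferase, had the single one past a fold change of 1.3, at -0.44 (limma-trend, adjusted p = 1.85e-10). Of 8 listed targets of KMT2A and menin 5 were measured in knockdown cells. Knockdown alone raised 4 of them (25.6% of all genes rose), among them MEIS1 by 0.84, HOXA10 by 0.61 and HOXA7 by 0.56, while the interaction was called in 1. Levels of KMT2A and of these 3 listed targets went in different directions with knockdown alone.

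In NT2/D1-A4 cells, GSK-J4 alone lowered 2 of the 4 shared core subunits, 3 of 5 SETD1 complex subunits (1 rose), 3 of 3 KMT2A and KMT2B partners, 3 of 4 KMT2C and KMT2D partners, 3 of 5 H3K4 demethylases and 9 of 20 other methyltransferases (1 rose), where 23.8% of all genes fell. The medians were -0.06, -0.25, -0.19, -0.26, -0.22 and -0.10, against -0.32 for the 7 genes and 0.01 over all genes. PAXIP1, a subunit of the KMT2C and KMT2D complexes, fell by 0.40 (limma-trend, adjusted p = 1.33e-05), and SMYD3, another lysine methyltransferase, rose by 0.74 (adjusted p = 9.14e-07). KDM6B itself, a target of the inhibitor, rose by 0.88 in NT2/D1-A4 and by 0.81 in 2102EP-C1. In 2102EP-C1 cells GSK-J4 alone lowered none of the 4 core subunits and 2 of 5 SETD1 complex subunits (1 rose). It lowered 3 of the 20 other methyltransferases (4 rose). In this comparison 16.0% of all genes fell, and no share of all genes that rose is given here. SETD7, an H3K4 monomethyltransferase, rose by 0.62 with GSK-J4 alone in these cells and by 0.40 with knockdown (limma-trend, adjusted p = 4.45e-08 and 1.05e-09).

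The profile of the 7 genes over the 12 arms was compared with that of 8723 other genes by the correlation with the members' mean deviation from each experiment's mean. The 5 genes most alike were MYO9A (r = 0.99), SPEN (0.99), MLXIP (0.98), ALMS1 (0.98) and C1orf115 (0.98). Their longest transcripts are 12478, 12385, 8390, 12844 and 2891 nt in that order. By Spearman correlation 1 of these 5 stayed among the 5 most alike. The arm means of each experiment were centred on their own mean, so these values describe only 12 points, which are not independent. Among the members themselves SETD1B was most like the mean of the 7 (r = 0.98), KMT2C, KMT2A, KMT2B, KMT2D and SETD1A ranged from 0.87 to 0.91, and KMT2E stood apart at 0.36.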

How the data were processed

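RNA was measured by stranded poly(A) RNA-seq (TruSeq Stranded mRNA, Illumina) in 36 libraries. Per the study, the authors used Trimmomatic for trimming and STAR for alignment to GRCh38.p14, counted genes with featureCounts, kept genes above 0.5 CPM in at least 2 libraries, scaled by TMM and deposited log2 CPM values. A prior count of 3 is not stated and was inferred from the deposited values. Tool versions and the strand setting were not given in the sources used here. Whole reads were recovered from 100% of values under 50 reads (within 0.05 of a whole number). Each table was normalized separately and fitted on its own with limma-trend (limma 3.58.1, R 4.3.3) on the deposited log2 values, with group means over 12 libraries and Benjamini-Hochberg adjustment over all genes of a comparison. A gene was called at an adjusted p below 0.05, and counted again with the fold limit of 1.3 from the study's volcano plots. Interactions are differences between the cisplatin effects. The fit was tested on simulated data: of 67 genes changed 1.3-fold in the knockdown table, cisplatin after knockdown, 59 were recovered, and with cisplatin after GSK-J4 50 of 67 in NT2/D1-A4 and 54 of 67 in 2102EP-C1. The simulation gave every gene the same fixed spread in every experiment and left the lowest genes unchanged. Its recovery therefore need not hold for genes that vary more between libraries. Recovery of an interaction was not examined.

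All 7 members, the targeted genes and any listed gene called past a fold change of 1.3 are named. The members and lists were chosen with earlier results of these data known. Lengths came from GENCODE transcripts by symbol (91.1% to 92.5% of genes). The length classes were chosen after seeing the data. Alternatives were a low-value filter, a fit of only the arms compared, the replicate block, subtraction of a smooth dependence on GC content and transcript length (splines, 4 df), voom on recovered reads, library size scaling, a prior count of 0.5, other call limits and leaving out each library.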

Additional observations from a re-analysis of the deposited data

Results flagged for a closer look

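The cisplatin effect differed between sh6A+6B and pLKO.1 cells for all 7 genes by the test of the interaction (limma-trend, adjusted p from 4.30e-12 for KMT2D to 0.000717 for SETD1A). The interaction was -0.75 for KMT2D, -0.61 for KMT2C, -0.56 for KMT2A, -0.40 for SETD1B, -0.31 for KMT2B, -0.29 for KMT2E and -0.18 for SETD1A on the log2 scale, where 18.0% of all genes were called below 0. Each stayed called without any single library, but with the length and GC trend removed KMT2B (-0.09, adjusted p = 0.0547) and SETD1A (-0.02, adjusted p = 0.725) were no longer called. SETD1B with cisplatin alone was at -0.0764 in NT2/D1-A4 cells and at 0.0553 in pLKO.1 cells. Its control and cisplatin libraries did not overlap in either experiment, neither difference was called, and the difference between the experiments was not tested.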

How the results depend on the processing

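The fall of all 7 genes with cisplatin in knockdown cells was called at an adjusted p below 0.05 under each of the other fits and without any single library, while the stricter call limits left 1 of 7 (fold above 1.3) and 6 of 7 (fold above 1.2 and adjusted p below 0.001). Leaving out a library, the members' median ran from -0.34 to -0.30 there, from -0.40 to -0.30 with both treatments against vector, from 0.0668 to 0.224 for the NT2/D1-A4 interaction, and in 2102EP-C1 from -0.0416 to 0.00253 with cisplatin alone, -0.173 to -0.0690 with both, -0.152 to -0.042 with cisplatin after GSK-J4 and -0.20 to -0.11 for the interaction. Counts of members called ran from 0 to 2 with cisplatin alone in NT2/D1-A4 and in 2102EP-C1, 0 to 1 with cisplatin after GSK-J4 in NT2/D1-A4 and 0 to 3 for the 2102EP-C1 interaction. Signs turned when a library was left out for KMT2C with cisplatin alone (-0.0872 to 0.0828), KMT2A (-0.0151 to 0.216), KMT2D (-0.0984 to 0.191), KMT2E (-0.0591 to 0.00157) and SETD1B (-0.0338 to 0.0809) with cisplatin after GSK-J4, KMT2D with GSK-J4 within cisplatin (-0.106 to 0.0436), and the interactions of KMT2B (-0.0177 to 0.0647) and SETD1A (-0.0112 to 0.156) in NT2/D1-A4. In 2102EP-C1 they turned for KMT2B with cisplatin alone (-0.0569 to 0.00253), KMT2D (-0.0764 to 0.0341) and KMT2E (-0.0165 to 0.0293) with GSK-J4 alone, KMT2C with both (-0.10 to 0.00839), KMT2A (-0.0503 to 0.0240) and KMT2C (-0.0500 to 0.0597) with cisplatin after GSK-J4, KMT2E with GSK-J4 within cisplatin (-0.0368 to 0.00795) and the KMT2E interaction (-0.0444 to 0.00145), and in the knockdown experiment for SETD1A with knockdown alone (-0.0365 to 0.0125).

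With the length and GC trend removed, with or without the replicate block, the members' median was -0.0240 with cisplatin after GSK-J4, -0.0943 with GSK-J4 within cisplatin and -0.0387 for the interaction in 2102EP-C1, and in the knockdown experiment 0.0097 with cisplatin alone, 0.0378 with knockdown alone, -0.131 with both, -0.169 with cisplatin after knockdown, -0.141 with knockdown within cisplatin and -0.184 for the interaction. Without the replicate block the number called became 2 with cisplatin alone and 6 with GSK-J4 within cisplatin in NT2/D1-A4. In 2102EP-C1 it became 0, 4, 5, 0 and 4 with cisplatin alone, GSK-J4 alone, both, cisplatin after GSK-J4 and GSK-J4 within cisplatin. In the knockdown experiment it became 2, 6, 4, 6 and 5 with cisplatin alone, knockdown alone, both, knockdown within cisplatin and for the interaction. Signs turned for KMT2D in NT2/D1-A4 with GSK-J4 within cisplatin (0.0414), for KMT2D in 2102EP-C1 with cisplatin alone (-0.0227), GSK-J4 alone (0.00099), both (0.0292), cisplatin after GSK-J4 (0.0282), GSK-J4 within cisplatin (0.0519) and the interaction (0.0509), for KMT2E with GSK-J4 alone (-0.0706), KMT2A with both (-0.0184), KMT2C with cisplatin after GSK-J4 (-0.0154) and the interactions of SETD1A (0.0135) and SETD1B (0.0646). In the knockdown experiment they turned for KMT2B with cisplatin alone (-0.000642), KMT2B, SETD1A and SETD1B with knockdown alone (0.0805, 0.0919 and 0.0378), and SETD1A with both (0.0157) and with knockdown within cisplatin (0.0730). The cause was not tested.

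Library size scaling turned KMT2C with cisplatin alone (0.0170) and the KMT2B interaction (-0.0010) in NT2/D1-A4, and SETD1A with knockdown alone (0.000261). Fitting only the arms compared called 2 members with cisplatin alone in each line given GSK-J4. With a fold above 1.3 the number called in NT2/D1-A4 became 0 with cisplatin alone, 2 with GSK-J4, 2 with both and 1 with GSK-J4 within cisplatin, in 2102EP-C1 0, 0, 1, 0 and 1 with cisplatin alone, GSK-J4, both, cisplatin after GSK-J4 and GSK-J4 within cisplatin, and in the knockdown experiment 0, 0, 3, 1 and 4 in that order and 4 for the interaction. With a fold above 1.2 and an adjusted p below 0.001 it became 0 and 1 with cisplatin alone and GSK-J4 within cisplatin in NT2/D1-A4, 0, 0, 0 and 2 with cisplatin alone, GSK-J4, cisplatin after GSK-J4 and GSK-J4 within cisplatin in 2102EP-C1, and 1 and 1 with cisplatin alone and knockdown alone.

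Calls gained by leaving out a library in NT2/D1-A4 were SETD1A with cisplatin alone (-0.17) without the first or the third library with both, KMT2D with both (-0.19) without the first GSK-J4 library, SETD1A with cisplatin after GSK-J4 (-0.18) without the first library with both, and, for GSK-J4 within cisplatin, KMT2A without the first or second GSK-J4 library (-0.20) or the first library with both (-0.24) and KMT2E without the latter (-0.13). In 2102EP-C1 they were KMT2A with cisplatin alone without the first cisplatin library (0.19), KMT2D with both without the first control, the first or the third GSK-J4 or the first or the third library with both (-0.12 to -0.17) and KMT2D with cisplatin after GSK-J4 without the third GSK-J4 library (-0.15). In the knockdown experiment they were KMT2C (-0.06) and SETD1B (-0.07) with knockdown alone, without the third sh6A+6B library with cisplatin and the third sh6A+6B library, and KMT2E with both without the third pLKO.1 library (0.07). Genes called over the table ranged from 1 to 23 for the NT2/D1-A4 interaction (7 in the fit reported), 120 to 2435 for that of 2102EP-C1 (405), 32 to 730 for cisplatin after GSK-J4 in NT2/D1-A4 (207) and 329 to 2054 for cisplatin alone in 2102EP-C1 (695). Same-numbered libraries of different arms correlated above 0.1 in 3, 1 and 5 of 18 pairs per experiment, and 5, 2 and 8 of 12 libraries correlated best with their own number. The replicate block alone changed 1 call, that of KMT2D with GSK-J4 in NT2/D1-A4 (-0.25, adjusted p = 0.0584).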
